A study of Mus musculus with 22 samples.

Results

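Soleus RNA of TRa1 knockout (KO) mice given T3 was compared with soleus RNA of wild-type (WT) mice given vehicle, across 15082 expressed genes. The comparison uses 12 of the 22 libraries of the study, 7 from T3-treated KO mice and 5 from vehicle-treated WT mice, chosen by the genotype and treatment in the labels. The other libraries are 4 of vehicle-treated KO mice and 6 of T3-treated WT mice, and all 22 are poly-A RNA of male mice. The vehicle-treated KO libraries split the difference into a pair of steps: the KO difference (KO vehicle minus WT vehicle) and the T3 response in KO (KO T3 minus KO vehicle), whose log2 values add up to the combined difference (KO T3 minus WT vehicle). The question is which KO differences T3 offset and which remained. The labels used here give no dose, route or duration of T3, no age or strain, and no statement on whether the receptor is missing from the whole animal or from muscle alone. They also do not say that the libraries of a group come from separate animals. The p-values here thus rest on the spread between the libraries, which may be technical.

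T3, the active thyroid hormone, enters the nucleus and binds receptors encoded by Thra and Thrb. TRα1 is the main T3 receptor of skeletal muscle and of the heart. The receptors sit on DNA with and without hormone, recruiting corepressors when T3 is absent and coactivators when it is bound. The soleus is a postural muscle of slow (type I) and fast oxidative (type IIa) fibres. Thyroid hormone is known to shift such a muscle towards faster myosins and a faster calcium pump, and a lack of hormone shifts it towards the slow programme.

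Total counts ran from 26336539 to 45184384 in WT vehicle and from 18166907 to 75766782 in KO T3. Thra, the targeted gene, was read at 82.1, 71.9, 73, 90.6 and 70.8 CPM (read counts scaled to a common library size) in the 5 WT vehicle libraries, at 53.6, 48.3, 44.2 and 44.4 in KO vehicle, and at a lowest of 21.2, a median of 34.3 and a highest of 39.8 in KO T3. All 7 KO T3 libraries lay below all 5 WT vehicle libraries, a difference of −1.25 ± 0.19 log2 (SE, adjusted p = 0.000423 with edgeR's quasi-likelihood test, and exact two-sided permutation p = 0.00126). This combined difference mixes genotype and treatment. The KO difference of Thra was −0.71 and not called (edgeR adjusted p = 0.0979), and the T3 response in KO was −0.55 and not called (adjusted p = 0.188). Every KO vehicle library still lay below every WT vehicle library. The KO difference stayed uncalled in 9 of 15 other settings and was called in the rest. It was also called without WT T3 replicate 1 (−0.69, adjusted p = 0.0279). Between KO T3 and WT T3 the difference was −0.39 (adjusted p = 0.271). The drop was not to 0, and a count per gene does not separate the transcripts of Thra, of which TRα1 is one product. T3-treated WT libraries ranged from 19.3 to 58.9 CPM and overlapped KO T3, so Thra does not tell the genotypes apart under T3. WT vehicle replicate 4 stood toward the T3 groups at several genes: Hr was at 59.7 CPM there and at 10.7 to 17.6 in the other WT vehicle libraries. KO T3 replicates 2 and 3 stood apart on the second principal component, as did 2 WT T3 libraries, and WT T3 replicate 5 on the first.

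KO T3 soleus differed from WT vehicle soleus in both directions, and contractile genes of fast and slow fibres were on opposite sides: Myh2, the IIa myosin, stood 4.06-fold lower and Tnni1, slow troponin I, 2.01-fold higher. Of the 15082 genes, 668 passed an adjusted p below 0.05 (4.43%), 380 of them higher (2.52%) and 288 lower (1.91%) in KO T3, and 226 differed by at least 2-fold. Of the 668 calls 56.9% were higher, and 91.7% were when libraries were scaled by total counts alone, a scaling that put the median of all genes at 0.21 log2. The gene just inside the threshold was Ccnk with an adjusted p of 0.0498, and the one just outside was Camta1 with 0.0505. Under vehicle, KO differed from WT in 465 genes (3.08%), 236 higher (1.56%) and 229 lower (1.52%). T3 changed 410 genes in KO (2.72%), 254 upward (1.68%) and 156 downward (1.03%). The median log2 difference over all genes was 0.01 for the combined difference and −0.02 for the KO difference. Leaving out the 5 T3 libraries that stood apart gave 1044 genes for the combined difference and 1032 for the KO difference.

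The 465 KO differences were sorted by what the T3-treated KO libraries showed. In 169 of them (36.3%) the combined difference was called in the same direction, so the KO difference stayed. In 109 (23.4%) it was no longer called while the T3 response in KO was called in the opposite direction, so T3 offset it. In 12 (2.58%) KO T3 was called on the far side of WT vehicle, and 175 (37.6%) met none of these rules and are left undecided. The median KO difference, signed so that it is positive, was 1.13 log2 for the genes that stayed and 1.03 for the offset genes, while the median combined difference was 0.98 and 0.06. A missed threshold does not make a gene equal to WT: 55 of the 109 offset genes had a 95% interval of the combined difference within 1.5-fold of WT on both sides. Since the KO difference and the combined difference share the WT vehicle libraries, part of their likeness is built in. The KO difference and the T3 response in KO share the 4 KO vehicle libraries with opposite sign, so spread in those libraries alone can look like an offset. Without KO vehicle replicate 2, 3 or 4, 42, 51 and 48 genes were offset, and 108, 104 and 86 stayed. Without WT vehicle replicate 4 there were fewer KO differences, of which 108 stayed, 65 were offset, 8 passed and 70 were undecided. Without the 5 T3 libraries that stood apart 327 stayed, 220 were offset, 20 passed and 465 were undecided.

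**Figure D1:**
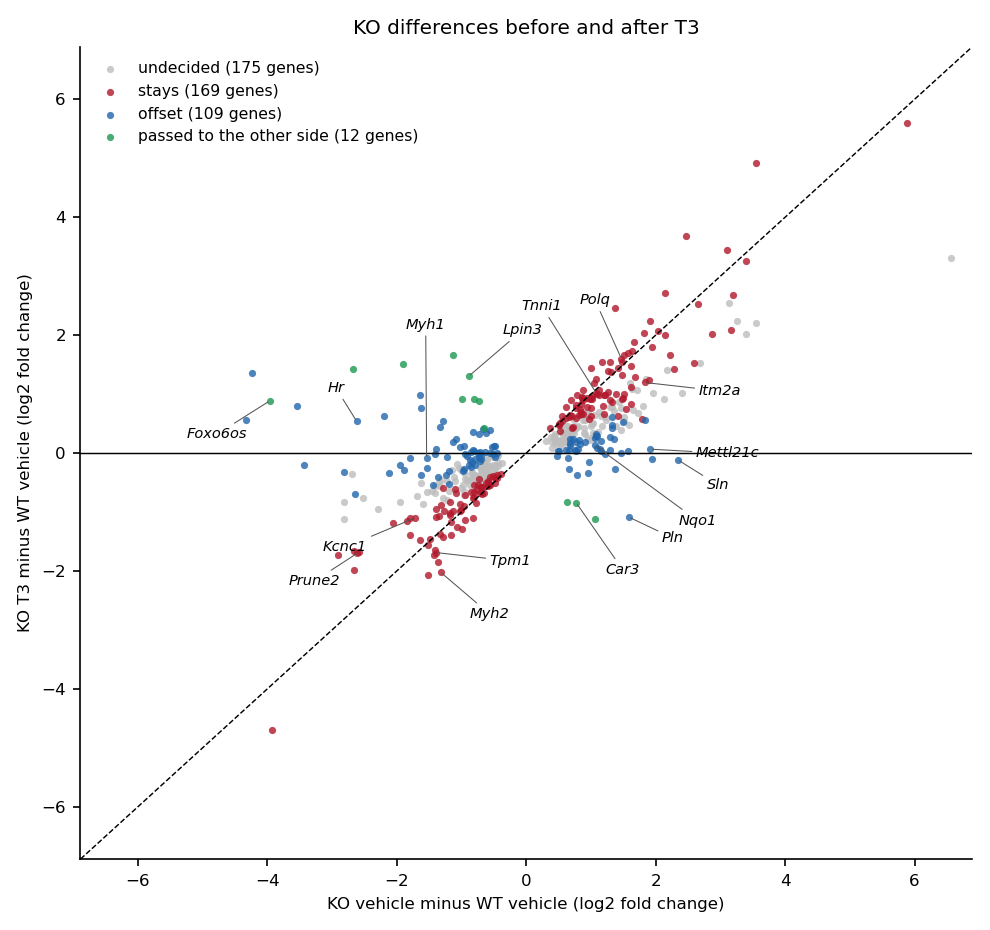
Each point is 1 of the 465 KO differences, with the log2 difference KO vehicle minus WT vehicle on the x axis and KO T3 minus WT vehicle on the y axis, coloured by class. The 169 genes that stay lie near the diagonal, the 109 offset genes near the horizontal line at 0, and the 12 that passed to the other side lie across it.

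The genotypes under T3 give a second look at the 465 KO differences that shares no library with the KO difference under vehicle. This holds for the 465 as a whole only. The sorting into classes used the KO T3 libraries, which this comparison uses again, so its values by class are in part built in. KO T3 differed from WT T3 in 840 genes (5.57%), 487 higher (3.23%) and 353 lower (2.34%). Of the 465 KO differences, 309 (66.5%) were called in the same direction there and 0 in the opposite one. The median signed difference from WT T3 was 0.73 log2 over all 465, 0.98 over the genes that stayed and 0.67 over the offset genes. A gene whose KO difference was offset against untreated WT was in most cases still apart from WT at the same treatment: 70 of the 109 offset genes were called in the same direction against WT T3.

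The position of single libraries was read as the median log2 difference from the WT vehicle mean over the KO differences, signed by the KO difference. The KO T3 libraries lay at a lowest of 0.32, a median of 0.44 and a highest of 0.61, between WT vehicle (−0.15 to 0.11) and KO vehicle (0.73 to 1.07), with no overlap to either group. Over the genes that stayed, KO T3 ran from 0.75 to 1.08 and overlapped KO vehicle (0.75 to 1.22). Over the offset genes it ran from −0.12 to 0.19 and overlapped WT vehicle (−0.20 to 0.11). WT T3 libraries lay at −0.66 to −0.55 over the offset genes and at −0.12 to 0.09 over those that stayed. The genes were chosen with the same libraries, so these positions are a description, and WT vehicle replicate 4 was the lowest of its group on all 3 measures.

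**Figure D2:**
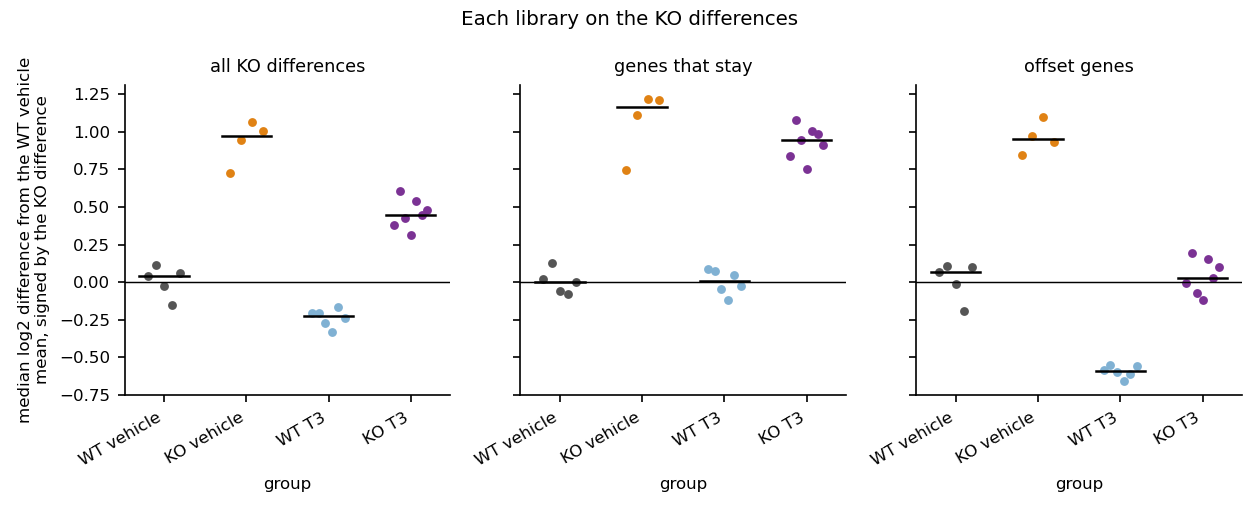
Each point is 1 library, with its group on the x axis and the median signed log2 difference from the WT vehicle mean on the y axis, over all 465 KO differences, over the genes that stay and over the offset genes; lines are group medians. KO T3 libraries sit at 0.32 to 0.61 over all, at 0.75 to 1.08 over the genes that stay and at −0.12 to 0.19 over the offset genes.

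Myh2 and 5 further fast-fibre contractile genes remained low in KO after T3. Of 17 measured members of this list, 7 were lower and 0 higher in KO T3 than in WT vehicle (1.91% and 2.52% of all genes), with a median of −0.96 log2 against 0.01 for all genes. Under vehicle 9 were lower in KO (1.52% of all genes), and 6 of those 9 stayed, 1 was offset and 2 were undecided. The 6 that stayed are Myh2, Tpm1, Tnnt3, Tnni2, Mylpf and Myl1, which encode a myosin heavy chain, a tropomyosin, 2 troponin subunits and 2 myosin light chains. In bulk RNA, fewer fast fibres and less fast-fibre RNA per fibre cannot be told apart.

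Myh2, the heavy chain of IIa fibres, was read at 11081, 7979, 8571, 10093 and 10039 CPM in WT vehicle and at 6939, 3239, 2260 and 2834 in KO vehicle. In KO T3 the lowest was 1494, the median 2313 and the highest 3407. All KO T3 libraries lay below all WT vehicle libraries, and the combined difference was −2.02 ± 0.25 log2 (edgeR adjusted p = 7.12e-05). The KO difference alone was −1.32 ± 0.29 (adjusted p = 0.0144) and the T3 response in KO −0.70 ± 0.27 (adjusted p = 0.201), so no move of Myh2 toward WT was measured. Myh2 was also lower than in WT T3, whose libraries held 6455 to 12814 CPM (edgeR adjusted p = 1.44e-05). The KO difference, though not the combined one, lost its call without any 1 of KO vehicle replicates 2, 3 and 4, with −1.18 and an adjusted p of 0.0785 without replicate 4.

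Myh1, the faster IIx heavy chain, met the rule for an offset gene by a narrow margin. WT vehicle libraries held 1132, 1591, 2790, 5092 and 3891 CPM, KO vehicle 965, 1067, 1021 and 939, and KO T3 a lowest of 804, a median of 2350 and a highest of 5328. KO T3 libraries spread over the whole WT vehicle range. The KO difference of −1.54 ± 0.40 (edgeR adjusted p = 0.0407) met a T3 response in KO of 1.46 ± 0.37 (adjusted p = 0.0468), which left −0.08 ± 0.35 with a 95% interval from −0.80 to 0.63. Myh1 kept this class in only 5 of the 22 fits that left out 1 library. The KO difference lost its call without any 1 of 8 libraries, with −1.23 and an adjusted p of 0.137 without WT vehicle replicate 4. The T3 response lost its call without any 1 of 16 libraries, with 1.40 and an adjusted p of 0.141 without KO vehicle replicate 4, and in 9 of the fits this left Myh1 undecided. Genes of adult fast myosins have near-identical stretches, and how their shared reads were counted is not given in the sources used here.

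Both genes lie side by side in the fast myosin cluster on chromosome 11, and their start-site windows are shown because Myh2 stayed low and Myh1 met the offset rule while their windows share a run of bases. The windows hold 250 bases before and 50 bases after the RefSeq start (GRCm38.p6, the assembly also called mm10, forward strand), Myh2 at chr11:67170777-67171076 and Myh1 at chr11:67199852-67200151. Capitals mark the longest run of bases that both windows share and the letters TATAAA.
Myh2: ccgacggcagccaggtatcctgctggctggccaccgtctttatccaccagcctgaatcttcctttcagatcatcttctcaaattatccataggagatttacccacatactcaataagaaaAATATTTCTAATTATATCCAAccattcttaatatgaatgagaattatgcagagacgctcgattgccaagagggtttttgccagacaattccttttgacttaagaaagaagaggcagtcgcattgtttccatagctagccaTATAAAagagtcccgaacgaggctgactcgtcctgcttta
Myh1: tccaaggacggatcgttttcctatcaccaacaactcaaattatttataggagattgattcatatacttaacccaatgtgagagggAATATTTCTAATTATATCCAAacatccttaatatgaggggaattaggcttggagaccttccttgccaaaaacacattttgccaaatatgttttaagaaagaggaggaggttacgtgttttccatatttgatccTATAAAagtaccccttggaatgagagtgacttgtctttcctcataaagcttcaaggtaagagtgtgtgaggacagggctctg
The shared run AATATTTCTAATTATATCCAA is 21 bases long, begins at position 121 of the Myh2 window and position 86 of the Myh1 window, and was found in 2 of 32851 windows searched on both strands. Its first 20 bases also stand in the Myh4 window. TATAAA, found in 13.6% of all windows, begins at position 261 in Myh2 and 219 in Myh1, each window's annotated start being 250 bases in. The half-site AGGTCA, the letters that nuclear receptors bind, was searched on both strands in the windows of the classes: it stood in 17 of 129 windows of genes that stayed (13.2%), in 13 of 73 of offset genes (17.8%), in 0 of 8 of genes that passed to the other side and in 12.3% of the windows of all tested genes matched. A match is a description of letters, and a window without one says nothing of the receptor.

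The share of each of the 4 adult myosin heavy chains was computed per length, as each gene's part of their summed RPKM (reads scaled by library size and gene length). Myh7, the slow chain, took 27.1% ± 8.06 (SD, n = 5) in WT vehicle, 65.0% ± 10.9 (n = 4) in KO vehicle, 55.6% ± 7.65 (n = 7) in KO T3 and 17.3% ± 3.38 (n = 6) in WT T3. Myh2 took 47.9% ± 10.8 in WT vehicle, 24.0% ± 11.2 in KO vehicle and 16.7% ± 4.91 in KO T3. Myh1 took 14.9% ± 5.59 in WT vehicle, 7.28% ± 0.764 in KO vehicle and 21.4% ± 9.67 in KO T3, where single libraries ran from 7.25% to 34.2%. In KO T3 the mean share of Myh7 was closer to that of KO vehicle than to that of WT vehicle, and the mean share of Myh1 was above that of Myh2. Myh4, the IIb chain, varied widely between libraries: WT vehicle held 17.8, 271, 1813, 8956 and 409 CPM, and its combined difference of −1.59 ± 1.21 was not called (edgeR adjusted p = 0.511). WT vehicle replicate 4 sets the sign of that value: without it the combined difference of Myh4 was 0.27 (adjusted p = 0.947), and the KO difference was −0.28 in place of −2.16.

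**Figure D3:**
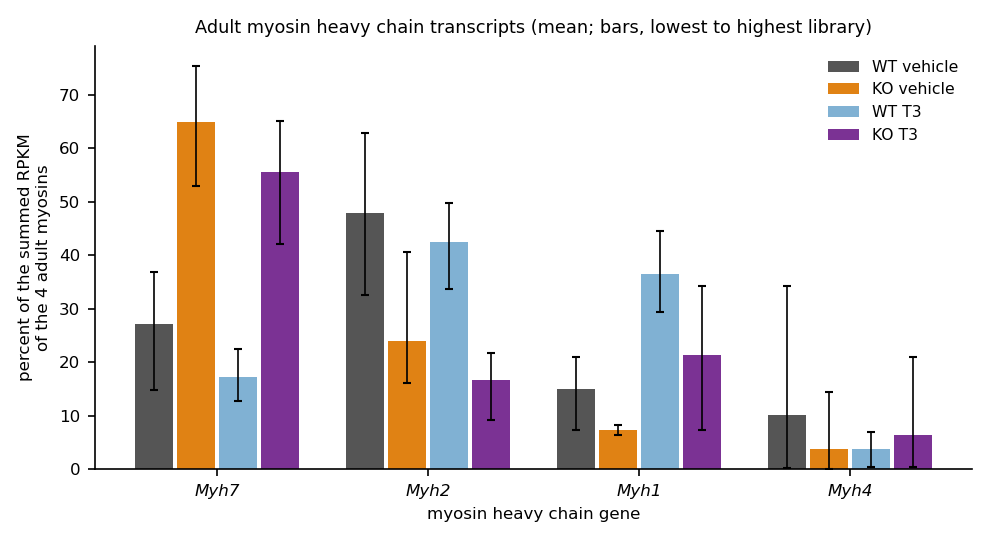
Percent of the summed per-length expression of Myh7, Myh2, Myh1 and Myh4 on the y axis, by gene and group; bars are group means and lines run from the lowest to the highest library. Myh7 averages 27.1% in WT vehicle and 55.6% in KO T3, Myh2 47.9% and 16.7%, and Myh1 14.9% and 21.4%.

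Tpm1, Tnni2 and Tnnt3, thin-filament genes of fast fibres, stayed low as Myh2 did. Tpm1, a tropomyosin, was at 6544, 5021, 6413, 8963 and 4224 CPM in WT vehicle and at 1498, 1787 and 2837 (lowest, median, highest) in KO T3. The groups did not overlap, and the combined difference of −1.69 ± 0.27 (edgeR adjusted p = 0.000563) stood beside a T3 response in KO of −0.29 ± 0.29. Tnni2, fast troponin I, ranged from 3130 to 5772 CPM in WT vehicle and from 1161 to 2534 in KO T3, −1.43 ± 0.28 (adjusted p = 0.00284). Tnnt3, fast troponin T, ranged from 6421 to 12686 and from 2717 to 5098, −1.38 ± 0.24 (adjusted p = 0.00113), with a T3 response in KO of −0.04 ± 0.26. All 3 combined differences were called in each fit that left out 1 library, while the KO difference of Tnni2, with an adjusted p of 0.0306, was lost without WT vehicle replicate 4 (−1.11, adjusted p = 0.084) and without 5 other single libraries. Those of Tpm1 and Tnnt3 were lost without KO vehicle replicate 4 (−1.25 and −1.18, adjusted p = 0.0785 and 0.0517).

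Of 16 measured slow-fibre contractile genes, 6 were higher, 1 was lower and 9 were not called in KO T3 against WT vehicle (2.52% and 1.91% of all genes were higher and lower). The median of the list was 0.37 log2, against 0.01 for all genes. Under vehicle 8 were higher in KO (1.56% of all genes) with a median of 0.67, and of these 5 stayed, 2 were offset and 1 was undecided. The 5 are Tnni1, Tnnc1, Tnnt1, Tpm3 and Atp2a2, which are 3 troponin subunits, a tropomyosin and the slow calcium pump. The lower one is Ldb3, a Z-disc protein.

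Tnni1, slow troponin I, was at 1731, 1986, 1738, 1155 and 1645 CPM in WT vehicle, at 2799, 3440, 3961 and 3829 in KO vehicle, and at 2462, 3357 and 4391 (lowest, median, highest) in KO T3. Every KO T3 library exceeded every WT vehicle library, by 1.01 ± 0.16 log2 (edgeR adjusted p = 0.000681), and the T3 response in KO was −0.08 ± 0.17. Tnnc1, the slow troponin C, stood at 0.90 ± 0.17 (adjusted p = 0.0027) with a T3 response of 0.02 ± 0.18, and Tpm3 at 0.81 ± 0.14 (adjusted p = 0.00131) with a T3 response of 0.04 ± 0.15. Under vehicle the KO differences of these 3 genes were 1.09, 0.88 and 0.77. Myh7 itself was undecided: its libraries ran from 5528 to 7301 CPM in WT vehicle, from 10939 to 12839 in KO vehicle and from 5949 to 11742 in KO T3, overlapping WT vehicle, with a combined difference of 0.57 ± 0.20 (adjusted p = 0.111). Its KO difference of 0.91 was called at 0.0261 and lost without any 1 of 5 libraries, with an adjusted p of 0.0772 without KO vehicle replicate 4.

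The calcium pumps and their peptide inhibitors did not move as a unit. Atp2a2, which encodes the slow-fibre pump SERCA2, was at 7431, 9384, 7726, 5509 and 8042 CPM in WT vehicle and at 10946, 13601 and 15251 in KO T3 (lowest, median, highest). The groups did not overlap, 0.78 ± 0.14 log2 (edgeR adjusted p = 0.00252). Its KO difference of 0.62 (adjusted p = 0.0396) was lost without any 1 of 10 libraries, WT vehicle replicate 4 among them (0.52, adjusted p = 0.14), while the combined difference was called in every fit that left out 1 library. Atp2a1, the fast pump SERCA1, ranged from 6628 to 13490 CPM in WT vehicle and from 4543 to 9948 in KO T3, with an uncalled combined difference of −0.43 ± 0.20 (adjusted p = 0.238). Its KO difference of −0.83 had an adjusted p of 0.0485 and was lost without any 1 of 16 libraries, with −0.73 and an adjusted p of 0.202 without KO vehicle replicate 4.

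Sln encodes sarcolipin, a small membrane peptide that lowers the calcium moved per ATP split by SERCA. It was at 50.1, 38.7, 38.8, 20.2 and 46.7 CPM in WT vehicle, at 135, 162, 298 and 193 in KO vehicle, and at 25.6, 32 and 58 (lowest, median, highest) in KO T3. KO vehicle lay above every other library, while KO T3 and WT vehicle overlapped. The KO difference of 2.34 ± 0.34 log2 (edgeR adjusted p = 0.000436) was met by a T3 response in KO of −2.46 ± 0.32 (adjusted p = 5.71e-05), leaving −0.12 ± 0.30 with a 95% interval from −0.74 to 0.51. Sln remained offset in each fit that left out 1 library. Against WT T3, whose libraries held 2.16 to 11.7 CPM, it was still 2.57 ± 0.30 higher (adjusted p = 1.44e-05).

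Pln, phospholamban, the inhibitor of SERCA2, also fell under T3 in KO. WT vehicle held 7.13, 12.6, 5.05, 1.67 and 6.45 CPM, KO vehicle 21.2, 21.3, 9.28 and 26.8, and KO T3 1.18, 2.64 and 6.7 (lowest, median, highest). The T3 response in KO was −2.67 ± 0.41 (edgeR adjusted p = 0.000408) and the combined difference −1.09 ± 0.39 (adjusted p = 0.121). Without WT vehicle replicate 4 the combined difference was −1.37 with an adjusted p of 0.032, and the KO difference of 1.58 fell to 1.33 and was no longer called (adjusted p = 0.1). That KO difference, with an adjusted p of 0.0483, was lost without any 1 of 17 libraries. Without KO T3 replicate 3 the combined difference was −1.37 (adjusted p = 0.0435), and Pln counted among the genes that passed to the other side. Of the 6 measured genes of this list, Atp2a2 was the 1 called in the combined difference.

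Outside the contractile lists, the named genes that stayed belong to several unrelated groups. Kcnc1, the fast potassium channel Kv3.1, was at 43.7, 46.6, 69.9, 65.7 and 69.7 CPM in WT vehicle, at 21.7, 18.7, 13.7 and 17.5 in KO vehicle and at 21.7, 26 and 34.1 (lowest, median, highest) in KO T3. The KO difference of −1.72 ± 0.17 was in part made up by a T3 response of 0.62 ± 0.16 (edgeR adjusted p = 0.0385), and −1.10 ± 0.15 remained (adjusted p = 0.000113) with no overlap between the groups. The T3 response of Kcnc1 lost its call without any 1 of 12 libraries, with 0.48 and an adjusted p of 0.187 without KO vehicle replicate 3. Chrna1, the alpha subunit of the acetylcholine receptor at the muscle endplate, ranged from 61.8 to 73.6 CPM in WT vehicle and from 75.6 to 116 in KO T3, 0.57 ± 0.10 higher (adjusted p = 0.00222), after 122 to 132 in KO vehicle. Its T3 response in KO was −0.40 and not called (adjusted p = 0.0544). Ak4, a mitochondrial adenylate kinase, and Col23a1, a transmembrane collagen, came down part of the way: their KO differences were 1.62 and 1.79 and their combined differences 0.84 ± 0.19 (adjusted p = 0.0102) and 0.57 ± 0.14 (adjusted p = 0.0184). The T3 response of Ak4, −0.78 with an adjusted p of 0.0274, lost its call without any 1 of 4 libraries (−0.67, adjusted p = 0.12, without KO vehicle replicate 3). The combined difference of Col23a1 was 0.51 with an adjusted p of 0.063 without WT vehicle replicate 2, and was lost without replicate 5 as well.

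Further genes that stayed, Polq, Krt222, Sorl1, Kalrn and Acss2, had uncalled T3 responses in KO between −0.24 and 0.14 log2. Polq, a DNA polymerase of break repair, was at 2.78 to 3.97 CPM in WT vehicle and 6.62 to 12.6 in KO T3, 3.04-fold higher (edgeR adjusted p = 0.000222), with a T3 response of 0.13 ± 0.23. Krt222, a keratin-like gene that lies 464.4 kb from Thra on chromosome 11, was at 4.38 to 7.59 and 9.57 to 15.6 CPM, 1.32 ± 0.17 higher (adjusted p = 0.000126). Sorl1, a sorting receptor of the endosome, was at 75.8 to 92 and 25.8 to 36.1 CPM, −1.40 ± 0.17 (adjusted p = 5.8e-05). Kalrn, an exchange factor for small GTPases, stood at −1.25 ± 0.15 (adjusted p = 5.39e-05) and Acss2, which makes acetyl-CoA from acetate, at −0.66 ± 0.10 (adjusted p = 0.000291). None of these 5 overlapped between KO T3 and WT vehicle, and all kept their class in every fit that left out 1 library. Prune2 and Itm2a had KO differences of −2.58 and 1.83 and KO T3 levels 3.2-fold below and 2.29-fold above WT vehicle. Their T3 responses in KO were larger, 0.90 and −0.63 log2 toward WT vehicle, but not called (edgeR adjusted p = 0.155 and 0.0654).

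The neighbourhood of the targeted gene was counted as well. Within 10 Mb of Thra, 13 of 281 tested genes were KO differences (4.63%, against 3.08% of all genes), of which 7 stayed and 5 were offset. Farther along chromosome 11 it was 26 of 952 (2.73%).

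Offset genes include classical targets of the hormone. Hr, a corepressor gene and a classical T3-induced transcript, was at 10.7, 12.9, 16.5, 59.7 and 17.6 CPM in WT vehicle, at 2.71, 5.23, 3.57 and 3.82 in KO vehicle and at 17, 36.4 and 55.2 (lowest, median, highest) in KO T3. The KO difference was −2.62 ± 0.42 log2 (edgeR adjusted p = 0.00129), the T3 response in KO 3.16 ± 0.39 (adjusted p = 0.000167) and the combined difference 0.54 ± 0.34 (adjusted p = 0.424). One library decides this class: without WT vehicle replicate 4 the combined difference was 1.22, the adjusted p 0.011, and Hr counted among the genes that passed to the other side. WT T3 libraries held 72.9 to 184 CPM, so KO T3 stayed below them by −1.92 ± 0.32 (adjusted p = 0.000626). Gpd2, the mitochondrial glycerol-phosphate dehydrogenase, was at 13.3, 16.8, 19.5, 50.9 and 18 CPM in WT vehicle and at 16.2 to 29.7 in KO T3, a combined difference of −0.07 ± 0.25. Without WT vehicle replicate 4 that value was 0.40 with a 95% interval from 0.02 to 0.78 (adjusted p = 0.287), and the KO difference of −1.22 became −0.72 and was not called (adjusted p = 0.0836). The KO difference of Gpd2 was also lost without KO vehicle replicate 3 (−1.03, adjusted p = 0.118) or 4. Its T3 response in KO, 1.15 with an adjusted p of 0.0275, was lost without any 1 of 5 libraries (0.96, adjusted p = 0.123, without KO vehicle replicate 3).

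Of 12 measured genes on the list of textbook T3-induced genes, 3 were lower in KO under vehicle (1.52% of all genes), Hr and Gpd2 among them, and 0 higher. T3 raised 4 in KO (1.68% of all genes), which were Hr, Gpd2, Dio3 and Klf9. Against WT vehicle 2 stood higher in KO T3 (2.52% of all genes), Dio3 and Me1, and 0 lower. Dio3, the deiodinase that inactivates T3, is read from very few counts: 0.0316 to 0.0743 CPM in WT vehicle and 0.257 to 0.83 in KO T3, a difference of 3.16 ± 0.60 log2 (edgeR adjusted p = 0.000753) with a 95% interval from 1.91 to 4.41. It passed the count filter only through the T3 groups, where it is high, so its place in the counts of this list and the next is no support. Under a filter of 1 CPM in 4 libraries Dio3 was not tested. Thrb, the other receptor gene, stood at −0.10 ± 0.17 (adjusted p = 0.805) and Ucp3, an uncoupling protein, at 0.19 ± 0.30 (adjusted p = 0.79). Of the 19 measured receptors, coregulators, deiodinases and transporters, Dio3 was higher and Thra lower in KO T3.

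Nqo1, Slc30a2, Letm1, Shmt1, As3mt and Fgd3 were offset, a class they kept whichever single library was left out. Nqo1, a quinone reductase, was at 72.6, 88.4, 64.2, 49.6 and 71.2 CPM in WT vehicle, at 165, 136, 119 and 158 in KO vehicle and at 61.8, 75.8 and 87.4 (lowest, median, highest) in KO T3. It overlapped WT vehicle after T3, with a combined difference of 0.13 ± 0.13 and a 95% interval from −0.13 to 0.39, and stood 1.68 ± 0.12 above WT T3 (edgeR adjusted p = 1.94e-08). Slc30a2, a zinc transporter, was at 9.72 to 15.5 CPM in WT vehicle, 3.25 to 6.15 in KO vehicle and 9.74 to 16.9 in KO T3, which left −0.02 ± 0.16. Letm1, a mitochondrial ion exchanger, was at 117 to 138, 67.7 to 79.4 and 87.8 to 153 CPM, which left −0.15 ± 0.11. Shmt1, a serine hydroxymethyltransferase of the folate cycle, As3mt, an arsenic methyltransferase, and Fgd3, a GTPase exchange factor, ended at 0.26 ± 0.14, −0.30 ± 0.13 and 0.19 ± 0.13. The interval of As3mt, from −0.57 to −0.04, did not include 0 although its adjusted p was 0.185. As3mt counted among the genes that stayed with voom and quality weights and with a correction for GC content and length. Shmt1 did so when libraries were scaled by total counts alone.

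Mettl21c, a lysine methyltransferase of muscle, stood far apart between the 2 treated genotypes. WT vehicle held 90.5, 117, 85.5, 32.2 and 78.5 CPM, KO vehicle 264, 299, 301 and 354, and KO T3 48.8, 66.1 and 139 (lowest, median, highest). KO T3 overlapped WT vehicle, with a combined difference of 0.07 ± 0.37 (edgeR adjusted p = 0.947) and a 95% interval from −0.70 to 0.83. WT T3 libraries held 0.881 to 7.64 CPM, and KO T3 stood 4.44 ± 0.37 log2 above them (adjusted p = 7.98e-07). T3-treated KO libraries overlapped untreated WT and not treated WT, and Mettl21c kept its class whichever single library was left out.

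**Figure D4:**
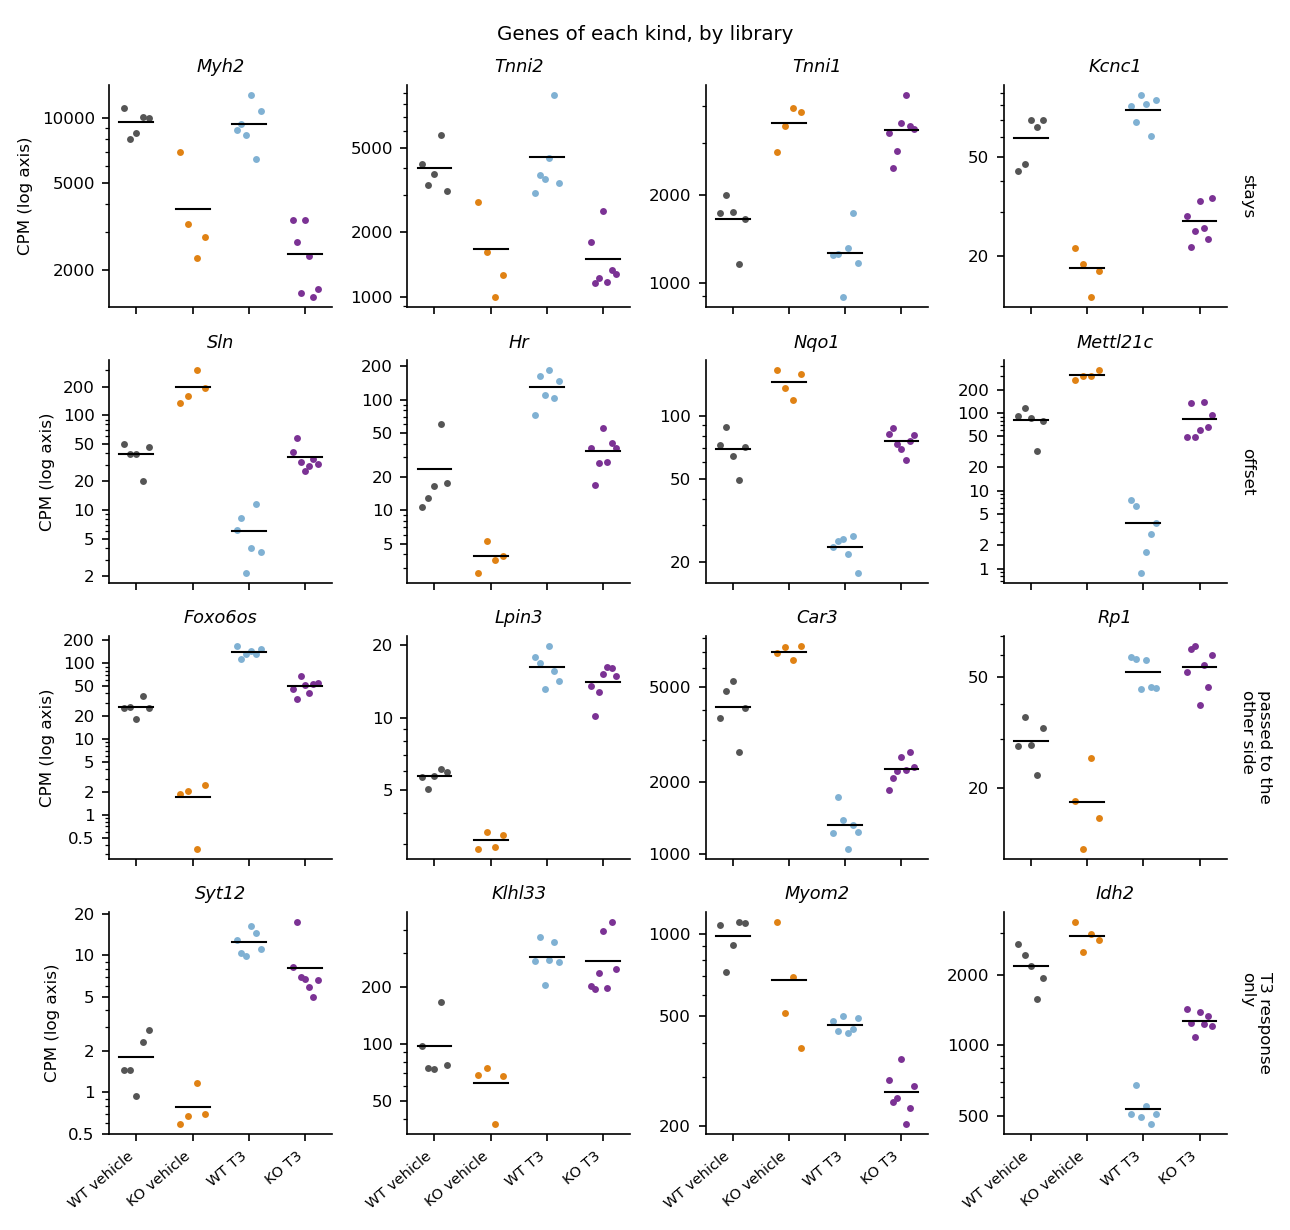
CPM of 16 genes on a log axis, 1 point per library, by group; lines are group means. The rows hold genes that stay (such as Myh2, 1494 to 3407 CPM in KO T3), offset genes (such as Nqo1, 61.8 to 87.4), genes that passed to the other side (such as Car3, 1861 to 2672) and genes with the T3 response only (such as Idh2, 1082 to 1429).

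In 12 genes T3 carried KO past WT vehicle, 3 of them high and 9 low in KO under vehicle. Lpin3, a phosphatidate phosphatase of triglyceride synthesis, was at 5.64, 5.06, 5.73, 6.14 and 5.94 CPM in WT vehicle, at 2.86 to 3.35 in KO vehicle and at 10.1, 14.9 and 16.2 (lowest, median, highest) in KO T3. The 3 groups did not overlap, and the KO difference of −0.88 ± 0.15 turned into a combined difference of 1.31 ± 0.12 log2 (edgeR adjusted p = 2.86e-06). The difference from WT T3, which held 13.1 to 19.8 CPM, was −0.20 ± 0.11 and not called (adjusted p = 0.39). Rp1, a microtubule-associated protein gene, ended at 0.88 ± 0.16 (adjusted p = 0.00181) from a KO difference of −0.73, which was lost without any 1 of 7 libraries (−0.56, adjusted p = 0.157, without KO vehicle replicate 2).

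Car2 and Car3, of 8 measured genes of carbonic anhydrases and anion exchange, passed from above WT vehicle to below it, and 5 of the 8 were not called in the combined difference. Car3, the abundant cytosolic form of slow muscle, was at 3707, 4808, 5282, 2676 and 4075 CPM in WT vehicle, at 6905, 7340, 6461 and 7418 in KO vehicle and at 1861, 2259 and 2672 (lowest, median, highest) in KO T3. All KO T3 libraries lay below all WT vehicle libraries, by −0.85 ± 0.14 log2 (edgeR adjusted p = 0.000878), and above the WT T3 libraries at 1057 to 1745 CPM. Car2 went from a KO difference of 0.63 ± 0.11 to a combined difference of −0.83 ± 0.09 (adjusted p = 2.61e-05), and Car14 to −0.83 ± 0.16 (adjusted p = 0.00336) with an uncalled KO difference of −0.29. Of the list 3 were higher in KO under vehicle (1.56% of all genes) and 3 lower in KO T3 (1.91% of all genes), with Car2 and Car3 in both counts.

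Foxo6os, an RNA antisense to Foxo6, crossed from far below WT vehicle to above it. It was at 26, 26.3, 18.5, 37.3 and 25.4 CPM in WT vehicle, at 1.9, 2.08, 0.357 and 2.5 in KO vehicle and at 33.7, 50.9 and 68.7 (lowest, median, highest) in KO T3. The KO difference of −3.96 ± 0.30 (edgeR adjusted p = 2.01e-07) and the T3 response in KO of 4.85 ± 0.28 (adjusted p = 1.19e-09) left 0.89 ± 0.23 (adjusted p = 0.0289), with overlap between KO T3 and WT vehicle. That remainder lost its call in 7 of the 22 fits that left out 1 library, at the least without WT vehicle replicate 3 (0.78, adjusted p = 0.11), and Foxo6os then counts as offset. Against WT T3, KO T3 was still lower, at −1.52 log2 (edgeR adjusted p = 9.83e-05). The kit keeps strand, but the strand setting of the counting is not given in the sources used here, so reads of Foxo6 and Foxo6os may not be separate.

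Undecided KO differences held intermediate levels after T3. Tecrl, which encodes a protein of the endoplasmic reticulum, was at 5.74 to 22.5 CPM in WT vehicle, 45.6 to 74.8 in KO vehicle and 19.9 to 55.4 in KO T3, with a combined difference of 1.02 ± 0.32 (edgeR adjusted p = 0.078) and a T3 response in KO of −0.94 ± 0.34 (adjusted p = 0.146). Scn3b, a sodium channel subunit, was at 3.79 to 5.45, 9.56 to 29.8 and 3.84 to 15.4 CPM, with 0.79 ± 0.30 (adjusted p = 0.151). Without WT T3 replicate 5 Tecrl counted among the genes that stayed (combined difference 1.01, adjusted p = 0.0488) and Scn3b among the offset ones (T3 response −1.04, adjusted p = 0.0442), as did Scn3b without KO T3 replicate 2. Under other settings each of these genes was undecided in only 8 of 15. With DESeq2 Tecrl stayed and Scn3b was offset, and without the 5 T3 libraries that stood apart both were offset. All 175 undecided genes kept the sign of the KO difference, with a median of 0.41 log2 after 0.83 under vehicle. The rule leaves out genes with a T3 response called in the opposite direction, so the kept sign and the intermediate levels follow largely from it. The genes were also chosen by their KO difference, which can raise its median above that of the combined difference.

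The 668 combined differences can be read from the other end. In 168 (25.1%) the KO difference was called in the same direction and the T3 response was not, in 118 (17.7%) the T3 response alone was called in that direction, and in 1, Gm30292, both were. Of the 169 genes that stayed 8, Kcnc1 among them, had a T3 response called in the opposite direction. The 118 include 12 with a KO difference called in the opposite direction, which are the genes that passed to the other side. The remaining 381 (57.0%) were called in neither step. Over those 381 the median combined difference, signed so that it is positive, was 0.69 log2. Signed the same way, the medians were 0.39 for the KO difference and 0.30 for the T3 response in KO. These steps add up to the combined difference by which the genes were called, so their shared sign is largely built in. At an unadjusted p below 0.05 and in the direction of the combined difference, 196 of them passed in the KO difference and 149 in the T3 response. Over all 15082 genes 2131 and 2057 passed, counted in either direction. The 381 were chosen by the sum of these steps, so a higher share among them is no separate result.

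The 118 genes called with the T3 response only were higher than in WT vehicle in 74 cases and lower in 44. Syt12, a synaptotagmin, was at 1.45, 1.47, 0.949, 2.32 and 2.85 CPM in WT vehicle and at 4.98, 6.77 and 17.6 (lowest, median, highest) in KO T3, with no overlap, 2.15 ± 0.29 log2 higher (edgeR adjusted p = 0.000193). Without KO T3 replicate 2 its KO difference was called at −1.22 (adjusted p = 0.0177), and Syt12 counted among the genes that passed to the other side, as it did with DESeq2, with voom and quality weights and without the 5 T3 libraries that stood apart. Klhl33, a Kelch-family gene, ran from 74 to 165 CPM in WT vehicle and from 196 to 442 in KO T3, 1.49 ± 0.24 (adjusted p = 0.000843), and for both genes the difference from WT T3 was not called (adjusted p = 0.18 and 0.907). Trim63, the ubiquitin ligase MuRF1 of muscle protein breakdown, was 0.90 ± 0.20 higher (adjusted p = 0.0106), with overlap between the groups, and its T3 response of 0.95 lost its call without any 1 of 3 libraries (0.84, adjusted p = 0.0946, without KO vehicle replicate 4). Casp12, an inflammatory caspase gene, stood at 1.53 ± 0.21 (adjusted p = 0.000223), and without WT vehicle replicate 4 it counted as a KO difference that stayed (KO difference 0.96, adjusted p = 0.023). The T3 response of Casp12, 0.86 with an adjusted p of 0.0435, was lost without any 1 of 16 libraries (0.78, adjusted p = 0.162, without KO vehicle replicate 2).

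Those that were lower include genes of the M-band, of mitochondrial oxidation and of fat metabolism. Myom2, an M-band protein of fast fibres, was at 1074, 725, 912, 1104 and 1097 CPM in WT vehicle, at 1105, 516, 696 and 385 in KO vehicle and at 202, 252 and 351 (lowest, median, highest) in KO T3. KO T3 lay below every library of both vehicle groups, −1.89 ± 0.18 log2 from WT vehicle (edgeR adjusted p = 2.86e-06). Without KO vehicle replicate 1 the KO difference of Myom2 was −0.88 in place of −0.54 and called (adjusted p = 0.00867), so that it counted among the genes that stayed. Idh2, the mitochondrial NADP-dependent isocitrate dehydrogenase, was at 2708, 2421, 2185, 1576 and 1933 CPM in WT vehicle and at 1082, 1245 and 1429 in KO T3, −0.77 ± 0.13 (adjusted p = 0.00071), with WT T3 lower still at 460 to 675. With DESeq2, with voom and quality weights and when scaled by total counts alone Idh2 counted among the genes that passed to the other side. Hadh and Acadm, enzymes of fatty acid oxidation, stood at −0.62 ± 0.11 (adjusted p = 0.00151) and −0.46 ± 0.11 (adjusted p = 0.0145), the latter lost without WT vehicle replicate 1 (−0.42, adjusted p = 0.06). Acaca, which makes malonyl-CoA, was at −0.80 ± 0.13 (adjusted p = 0.000827) and Nfatc1, a calcineurin-driven transcription factor of slow fibres, at −0.59 ± 0.13 (adjusted p = 0.0101). The T3 responses of Hadh, Acaca and Nfatc1, with adjusted p of 0.0293, 0.0435 and 0.03, lost their call without any 1 of 5, 11 and 4 libraries. Without KO vehicle replicate 1 they were −0.43, −0.40 and −0.47 (adjusted p = 0.105, 0.227 and 0.142). G0s2, an inhibitor of triglyceride lipase, was at −1.32 ± 0.33 (adjusted p = 0.0182) and lost its call without WT vehicle replicate 4 (−1.13, adjusted p = 0.06) or without replicate 5.

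Genes called in neither step could still stand clear of WT vehicle. Zfp385b, a zinc finger gene, ran from 7.65 to 11.5 CPM in WT vehicle and from 17.5 to 23.7 in KO T3, without overlap, 1.13 ± 0.17 log2 (edgeR adjusted p = 0.000433), from steps of 0.51 and 0.62. Cdkn1a, the cell cycle inhibitor p21, stood at 1.42 ± 0.32 (adjusted p = 0.0141), from 1.00 and 0.42. Slc6a17, a transporter of neutral amino acids, stood at −1.44 ± 0.24 (adjusted p = 0.000769), from −0.76 and −0.68. Cyp26b1, which breaks down retinoic acid, stood at −1.49 ± 0.30 (adjusted p = 0.00455), though its KO T3 libraries overlapped WT vehicle. Ogdh, of the oxoglutarate dehydrogenase complex, was at 2022 to 2315 CPM in WT vehicle and 1158 to 1556 in KO T3, −0.63 ± 0.13 (adjusted p = 0.00418). Without KO vehicle replicate 1, and without WT T3 replicate 5, its KO difference was called (−0.56 and −0.40, adjusted p = 0.0363 and 0.0467), and Ogdh counted among the genes that stayed.

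Fuel pathways held lower members among many that were not called. Of 29 glycolysis and glycogen genes, 7 were lower in KO T3 (median of the list −0.27 log2) and 1 higher, beside 1.91% lower and 2.52% higher over all genes, and 3 of the 5 KO differences of this list stayed. Gys1, muscle glycogen synthase, was at 868, 807, 928, 844 and 929 CPM in WT vehicle and at 562, 655 and 717 in KO T3 (lowest, median, highest), without overlap, −0.43 ± 0.10 (edgeR adjusted p = 0.0129), a call lost when libraries were scaled by total counts alone or no filter was used. Its KO difference of −0.46 (adjusted p = 0.0301) was lost without any 1 of 8 libraries (−0.37, adjusted p = 0.19, without KO vehicle replicate 4). Pygm, muscle glycogen phosphorylase, was at −0.70 ± 0.17 (adjusted p = 0.0188) and lost its call without WT vehicle replicate 4 (−0.49, adjusted p = 0.068) or replicate 3. Of 27 genes of the TCA cycle and pyruvate dehydrogenase 4 were lower (Idh2, Ogdh and Pdk2 among them), of 24 of fatty acid uptake and oxidation 3 (Hadh, Acadm and Fabp3), and 0 in either list were higher, again beside 1.91% lower over all genes. Of the 36 nuclear complex I subunits 0 were called in the combined difference, and of the 36 subunits of complexes III to V also 0, with medians of −0.17 and −0.09. Of 11 genes of the mitochondrial genome 1 was lower, mt-Atp6, which held under 1 CPM, and the list's median was −0.51.

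The other lists held 0 to 3 calls each in the combined difference. Beside the 4.43% of all genes called, numbers this small are a description and no result about the lists. Lipogenic enzymes had 1 higher (Me1) and 2 lower (Acaca and Acss2) of 16, and triglyceride turnover 1 higher (Lpin3) and 1 lower (G0s2) of 14. Atrophy ligases and Foxo genes had 3 higher of 15 (Foxo6os, Trim63 and Foxo3), and Nrf2 antioxidant genes 1 higher (Gclm) and 1 lower of 17, the latter being Mgst1 at −0.57 ± 0.12 (edgeR adjusted p = 0.00432), a KO difference that stayed and was lost under scaling by total counts alone. Fibre type regulators had 1 higher (Myog) and 1 lower (Nfatc1) of 26, ion pumps and channels 2 lower of 15 (Kcnc1 and Kcnn3), circadian clock genes 2 lower of 19 (Cry2 among them), heat shock genes 1 higher of 17 (Hsph1), lysine methyltransferases 1 higher of 8 (Mettl21e) and neuromuscular junction genes 1 higher of 15 (Chrna1). No gene was called among 21 calcium release and store proteins, 7 uncoupling proteins and nucleotide carriers, 10 genes of creatine and nucleotide buffering and 17 immediate early genes.

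**Figure D5:**
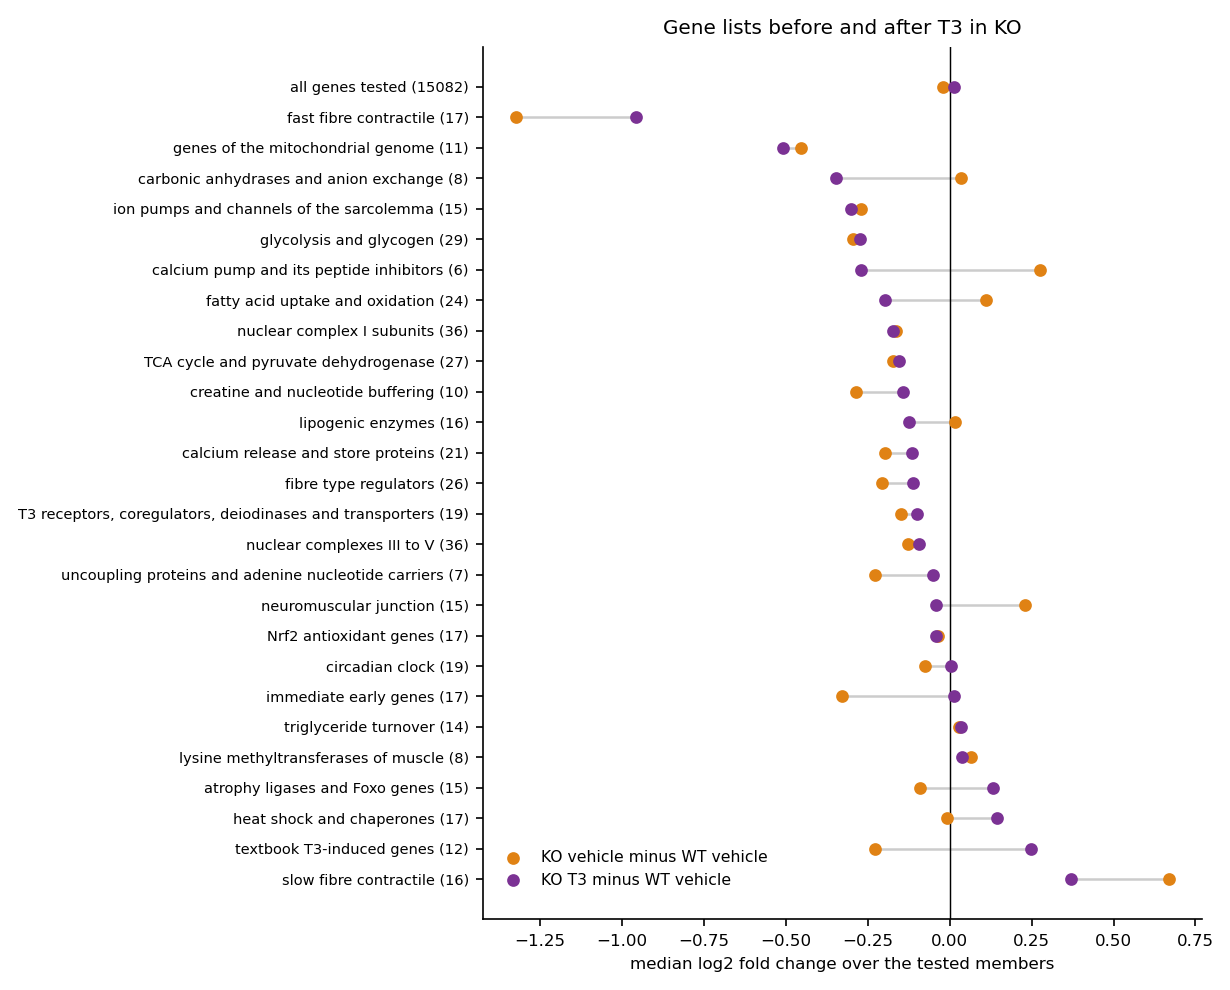
Median log2 difference of each of 26 gene lists and of all tested genes, for KO vehicle minus WT vehicle and for KO T3 minus WT vehicle. In KO T3 fast fibre genes lie at −0.96, slow fibre genes at 0.37, and all genes at 0.01.

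Markers of other cells in the tissue were read in the same libraries. Skeletal muscle fibre markers were abundant in every library, with 35523.8 to 70035.6 summed CPM over the groups, and 0 of 8 were called in the combined difference. Smooth muscle and pericyte markers had 3 lower of 9 (1.91% of all genes were lower): Myh11, at 31.2 to 47.4 CPM in WT vehicle and 20.6 to 25.3 in KO T3 (−0.82 ± 0.18, edgeR adjusted p = 0.00716), Pdgfrb (−0.59 ± 0.11, adjusted p = 0.00223) and Cspg4. Their summed CPM overlapped, 4894.78 to 6445.6 in WT vehicle and 4076.32 to 6253.6 in KO T3, a sum that includes Des, which muscle fibres also express. Macrophage markers had 1 higher of 10 (Cd163), with 48.1 to 69.4 summed CPM in WT vehicle and 49.1 to 164 in KO T3. Of 10 Schwann cell, 8 fibroblast, 9 endothelial, 7 adipocyte, 7 satellite cell and 5 erythroid markers 0 were called. The median combined difference was −0.60 log2 for smooth muscle and pericyte markers, −0.60 for Schwann cells, −0.48 for skeletal muscle fibres, 0.73 for macrophages and 1.48 for erythroid cells, against 0.01 for all genes, and it lay between −0.25 and 0.29 for the fibroblast, endothelial, adipocyte and satellite cell lists. Schwann markers summed to 419 CPM in WT vehicle replicate 3, where the group median was 90.6, and erythroid markers to 43.9 to 70 in WT vehicle and 25.0 to 298 in KO T3. Lymphocyte markers were at the limit of reading, with 2 of 11 tested, and Cd4 at 0 in 20 of the 22 libraries. The part of these cells in the differences above was not tested.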

How the data were processed

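The authors deposited 1 table of raw read counts per gene with 22 library columns. Per the submitters' processing notes STAR 2.7.3a, featureCounts 1.6.4, edgeR 3.26.8 and mm10 were used, and per the labels the reads are 51-bp pairs from stranded poly-A libraries. No source used here gives the annotation release or whether counting used strand. A column of gene lengths came with the table. Of 55487 genes, 15082 passed filterByExpr (minimum count 10) and held at least 99.94% of each library. Libraries were scaled by TMM, and the 4 groups were fitted together with the quasi-likelihood test of edgeR 4.0.16 in R 4.3.3. Errors are standard errors of the fit, and p-values were adjusted by Benjamini and Hochberg over all 15082 genes, called below 0.05. Named genes were the 12 largest called changes each way at 5 CPM or more, the 8 most significant of each class, up to 4 per list and a set followed throughout, of which a selection is printed and a few are not reported here. Genes outside that rule were named after their values were seen. The classes, members and 36 lists were chosen with earlier results of these data known. Alternatives used DESeq2 1.42.0, limma 3.58.1 and sva 3.50.0.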

Additional observations from a re-analysis of the deposited data

Results flagged for a closer look

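Single libraries far from the rest of their group were found in 18 of 264 groups of values, 66 genes in 4 groups each. Chance flags about 1 in 20 such groups. WT vehicle replicate 4 stood high at Hr (59.7 CPM), Gpd2 (50.9), Klhl33 (165) and Myh4 (8956). WT T3 replicate 5 stood high at Tnni2 (8887 CPM), Tnnt3 (15907) and Pln (1.68), and low at Sorl1 (39.5). In the other WT vehicle libraries, Chrna1 was high in replicate 2 (73.6 CPM) and Kalrn in replicate 1 (44.3). KO vehicle replicate 2 was high at Myh4 (1974 CPM), and replicate 1 at Nfatc1 (61.9) and Ogdh (2070). KO T3 replicate 2 was high at Syt12 (17.6 CPM) and Cdkn1a (86.4), and replicate 1 at G0s2 (39.9). Mgst1 was low in WT T3 replicate 1 (69.1 CPM) and Myh1 high in WT T3 replicate 2 (10332).

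The T3 response of Foxo6os differed between the genotypes by the interaction test of edgeR: it was 2.44 log2 larger in KO than in WT, with an adjusted p of 0.0164. Under vehicle KO started at 0.0642-fold of WT. Under T3 it remained below WT T3, at −1.52 log2 (edgeR adjusted p = 9.83e-05).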

How the results depend on the processing

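No paired analysis was possible because the labels give no number shared between groups. All 66 genes followed kept their direction for the combined difference under each alternative where they were called. Of 1055 gene values of the combined difference under other settings 1022 kept their side of the threshold, and of 1452 with 1 library left out 1434 did. The KO difference, on which the classes rest, was less steady. Of its 989 values under other settings 944 kept their side, and of 1452 with 1 library left out 1361 did. With the counts in the order combined difference, KO difference, T3 response in KO and KO against WT under T3, leaving out 1 library gave 381 to 1200, 212 to 788, 164 to 696 and 663 to 1150 genes. The lowest combined count was without WT vehicle replicate 3 and the highest without WT T3 replicate 5. Over the same fits 86 to 304 KO differences stayed, 42 to 185 were offset, 5 to 15 passed and 70 to 284 were undecided. Of the combined differences 86 to 302 came with the KO difference only, 59 to 205 with the T3 response only, 0 to 2 with both and 204 to 691 with neither. Offset genes within 1.5-fold of WT numbered 21 to 120, and 50.0% to 59.2% of the combined calls were higher. Of the 169, 109 and 12 genes that stayed, were offset or passed, DESeq2 put 169, 104 and 12 in the same class, and 0 moved from stayed to offset. Other fits kept fewer. Without KO vehicle replicate 2, 3 or 4, 41, 43 and 47 of the 109 offset genes kept that class. Scaling by total counts alone kept 69 of them, and an adjusted p below 0.01 kept 22. Of the 169 that stayed, 86 did so without KO vehicle replicate 4. Without WT vehicle replicate 2, 2 genes moved from stayed to offset.

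Scaling by total counts alone, which moved the median of all genes to 0.21 log2, gave 1953 combined calls, 91.7% of them higher, and 1459 for KO against WT under T3, with 302 that stayed, and 300, 193, 2 and 1458 with the KO difference only, the T3 response only, both and neither. With no filter the T3 response only held 76 and both held 0. DESeq2 called 1014, 728 and 664 genes for the first 3 comparisons, with 281 that stayed, 174 offset (91 within 1.5-fold), 280 with the KO difference only and 198 with the T3 response only. limma voom gave 7 that passed. Voom with quality weights called 2088, 1971, 1472 and 1478 genes, with 843 that stayed, 483 offset (349 within 1.5-fold), 36 passed and 609 undecided, and 826, 401, 17 and 844 of the 4 kinds of combined call. A fit of 3 groups gave 1090 combined calls, 268 that stayed, 93 offset within 1.5-fold, and 266, 180, 2 and 642 of the 4 kinds. With 1 surrogate variable there were 1277, 858, 779 and 1286 calls, 335 that stayed, 207 offset (127 within 1.5-fold), 301 undecided, and 334, 233 and 709 with the KO difference only, the T3 response only and neither. Without the 5 T3 libraries that stood apart there were 1044, 1032 and 682 calls, 327 that stayed, 220 offset (148 within 1.5-fold), 20 passed, 465 undecided, and 325, 185 and 2 with the KO difference only, the T3 response only and both. An offset for GC content and length gave 1009, 737, 740 and 1284 calls, 259 that stayed, 198 offset (132 within 1.5-fold), 266 undecided, and 257, 195 and 2 of the same kinds. At an adjusted p below 0.01 there were 270, 155, 127 and 392 calls, 61 that stayed, 24 offset (14 within 1.5-fold), 4 passed, 66 undecided, and 61, 33, 0 and 176 of the 4 kinds. At an adjusted p below 0.1 there were 1083, 717 and 671 calls, 290 that stayed, 173 offset (86 within 1.5-fold), and 289, 200 and 593 with the KO difference only, the T3 response only and neither. The cause of these shifts was not tested.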

Other observations

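Median expression was 10.2 CPM for the genes that stayed, 12.9 for the offset genes, 8.31 for those that passed to the other side and 9.47 for the undecided ones, beside 9.12 for all 15082 tested genes. The median span on the genome was 33.8 kb for genes that stayed, 24.5 kb for offset genes, 13.5 kb for those that passed and 34.4 kb for undecided ones, beside 21.5 kb for all tested genes. Of the 465 KO differences 55 are unnamed gene models. These values were not tested.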
